A study of Mus musculus with 7 samples.

Results

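The miR-106b-25 and miR-106a-363 clusters are the paralogs of the Mir17hg cluster (miR-17 to miR-92a), and 6 of their mature miRNAs were chosen by name: miR-106b-5p, miR-106b-3p, miR-93-5p and miR-25-3p from the first, and miR-20b-5p and miR-363-3p from the second. They are 6 of the 1881 miRNA names on the array. The rule that names them uses no measured value, but they were chosen with earlier results of these data known. The RNA came from mouse CD4+ T cells taken from draining lymph nodes by positive selection on magnetic beads, and each of 7 samples was hybridised to a one-colour Agilent miRNA array. Of these, 4 arrays were from EAM mice, a model of myocarditis (inflammation of the heart muscle), and 3 were from LAD mice, a model of myocardial infarction. The sample labels place the EAM cells at day 6 and the LAD cells at day 3 after induction, whereas the text for the series gives day 3 for EAM and day 6 for LAD. The comparison is therefore between 2 models at 2 different times, with no untreated control among these samples. Strain, sex, age and the way each model was induced are not given in the sources used here, nor whether an array held the cells of a single mouse, so the p-values measure the spread between these arrays, which may be technical.

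A miRNA is a short RNA that guides a repressor complex to messenger RNAs, mainly through its seed, bases 2 to 8, which pairs with the target. The Mir17hg cluster and its paralogs are known for promoting proliferation and survival of lymphocytes, among other ways by repressing the death factor Bim and the cell cycle inhibitor p21. The members of a cluster are cut from a common primary transcript, but their mature levels can still differ, since each hairpin is processed and each strand is kept or lost separately.

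The mature sequences are shown because they divide the members into seed families that run across the 2 clusters. All 6 were found in RefSeq's table for GRCm38.p6, and the capitals mark the seed.
miR-106b-5p: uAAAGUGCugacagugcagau
miR-93-5p: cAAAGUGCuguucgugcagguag
miR-20b-5p: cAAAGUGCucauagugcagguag
miR-25-3p: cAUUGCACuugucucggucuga
miR-363-3p: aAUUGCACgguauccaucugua
miR-106b-3p: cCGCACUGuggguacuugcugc
The first 3 share the seed AAAGUGC, which is also that of miR-17-5p and miR-20a-5p of Mir17hg. miR-25-3p and miR-363-3p share AUUGCAC with miR-92a-3p, and miR-106b-3p, the opposite strand of the miR-106b hairpin, has a seed of its own among the 6. Outside the seed the likeness varied. miR-20b-5p matched miR-20a-5p at 21 of 23 bases (C1U and C10U, counted from the 5′ end, with the base of miR-20b-5p first), and miR-25-3p matched miR-92a-3p at 18 of 21 aligned bases. miR-25-3p and miR-363-3p were identical at 9 of 22 bases, so little beyond the seed is common to them. The 3 hairpins of miR-106b-25 lie within 498 bases at chr5:138165321-138165818, on the minus strand and inside Mcm7, which encodes a subunit of the helicase that unwinds DNA in replication. The 6 hairpins of miR-106a-363 lie within 875 bases at chrX:52741693-52742567, also on the minus strand, with no gene containing them all in the table used; the lncRNA gene Kis2 (chrX:52742563-52744593) overlaps the end of the span, at the Mir106a hairpin.

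Each array carried 58594 spots, and the scanner software called between 445 and 471 miRNAs detected on the EAM arrays and between 311 and 380 on the LAD arrays. The LAD arrays were dimmer: before any scaling, the median of the 251 miRNAs detected on all 7 arrays lay 3.02-fold, 1.43-fold and 3.29-fold below the EAM mean on LAD arrays 1, 2 and 3. All EAM arrays were in 1 column of the slide and all LAD arrays in the other, so position and group cannot be told apart. All 5 lymphocyte markers were detected on every array, but their summed total gene signal (the software's background-subtracted sum over the probes of a miRNA) was 41200 to 57070 on the EAM arrays against 2358 to 11050 on the LAD arrays. None of these markers is specific to CD4+ cells. All 6 stromal and muscle markers were undetected on every array. Of the 2 myeloid markers, miR-223-3p was detected throughout and miR-223-5p nowhere, with sums of 58.3 to 67.4 in EAM and 24.9 to 75.2 in LAD. Red-cell markers, 4 of 5 of which are on the array, summed to 50.3 to 94.2 in EAM and 9.98 to 32.4 in LAD, with miR-144-3p, miR-144-5p and miR-486a-5p undetected. Of the endothelial and platelet markers, miR-126a-5p was undetected, and the sums were 0.2 to 11.3 in EAM and 0.2 to 13.02 in LAD. All 5 epithelial markers were detected on some arrays, with sums of 56.7 to 89 in EAM and 0.5 to 10.5 in LAD. None of these sums was scaled between arrays, so they carry the dimness of the LAD arrays. After the quantile normalization described below, miR-223-3p was higher in LAD (EAM minus LAD -1.52). The lymphocyte markers miR-142a-3p and miR-150-5p were then higher in EAM, by 0.34 and 1.33. The part of these marker differences in the values of the members was not tested. Fewer cells of a type, less of the RNA per cell and a dimmer array cannot be told apart from such sums.

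After quantile normalization, which gives every array the same distribution of signals, the 5 detected members had nearly equal values on the 4 EAM arrays and widely spread ones on the 3 LAD arrays. None of the 5 passed the test between the groups (limma, EAM minus LAD, Benjamini-Hochberg adjusted p under 0.05 over 423 tested miRNAs), whereas 59.8% of all tested miRNAs did. At an unadjusted p under 0.05, 1 of the 5 passed, miR-20b-5p, against 284 of the 423. The sixth, miR-106b-3p, was not tested, because it was not detected on every array of either group. Values below are normalized log2 signals unless another scale is named, and they are not ranked between members, since each miRNA has its own probes.

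mmu-miR-106b-5p, which represses the cell cycle inhibitor p21, had normalized log2 signals of 9.42, 9.57, 9.49 and 9.54 on EAM arrays 1 to 4 and of 9.42, 10.05 and 9.33 on LAD arrays 1 to 3. LAD array 2 was the highest and LAD array 3 the lowest of the 7, so the LAD values enclosed all EAM values. The means were 9.51 ± 0.064 (SD, n = 4) and 9.60 ± 0.39 (SD, n = 3), and the difference in limma was -0.095 (95% interval -0.52 to 0.33, adjusted p = 0.649). mmu-miR-93-5p, from the neighbouring hairpin and with the same seed, read 7.80, 7.90, 7.97 and 7.99 in EAM and 7.32, 9.19 and 7.84 in LAD. Again LAD array 2 was above every EAM array, LAD array 1 was below all of them and LAD array 3 lay among them. Its difference was -0.20 (95% interval -1.11 to 0.70, adjusted p = 0.648 in limma).

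mmu-miR-25-3p, the third product of the Mcm7 cluster and a repressor of Bim, read 9.31, 9.25, 9.20 and 9.25 in EAM and 9.03, 10.35 and 9.50 in LAD. LAD arrays 2 and 3 were above the EAM range and LAD array 1 was below it. The difference was -0.37 (95% interval -1.02 to 0.27, adjusted p = 0.253 in limma). mmu-miR-106b-3p was detected on LAD array 2 alone, at a total gene signal of 2.58 against the value of 0.1 that the software gives an undetected miRNA on the other 6 arrays. No probe of it had a spot well above background on every array of either group. No fold is given for this strand, and its normalized values of 4.01 to 4.19 describe background.

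mmu-miR-20b-5p, which is known in T cells as a repressor of RORγt and STAT3, factors of the Th17 programme, had normalized values of 10.10, 10.11, 10.14 and 10.16 on the EAM arrays (SD 0.029), against 10.12, 11.65 and 10.99 in LAD (SD 0.77). LAD array 1 lay within the EAM range and LAD arrays 2 and 3 were above it. The means, 10.13 in EAM and 10.92 in LAD, differed by -0.79 (95% interval -1.52 to -0.069), or 1.74-fold toward LAD. The unadjusted p of 0.0357 did not survive adjustment over the 423 miRNAs (adjusted p = 0.0561 in limma). Without LAD array 1 the difference was -1.19 and passed (adjusted p = 0.00718 in limma, where 35.5% of all tested miRNAs passed). With any other array left out, miR-20b-5p did not pass (adjusted p from 0.102 to 0.141 in limma), and without LAD array 2 its difference was -0.43. mmu-miR-363-3p, the last hairpin of its cluster, read 6.54, 6.64, 6.74 and 6.89 in EAM and 5.79, 7.95 and 6.21 in LAD. LAD array 2 was above and LAD arrays 1 and 3 were below every EAM array, and the difference was 0.054 (95% interval -1.01 to 1.12, adjusted p = 0.918 in limma). Without LAD array 2, miR-363-3p was 0.71 higher in EAM and passed (adjusted p = 0.00389 in limma, where 81.6% of all tested miRNAs passed). On the LAD arrays then left, its total gene signal was low, 8.93 and 10.62 against 63.8 to 88.55 in EAM. For 1 of its probes, as few as 5 of 15 spots were well above background on a LAD array. With any array other than LAD array 2 left out, miR-363-3p did not pass (adjusted p from 0.449 to 0.99 in limma).

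**Figure D1:**
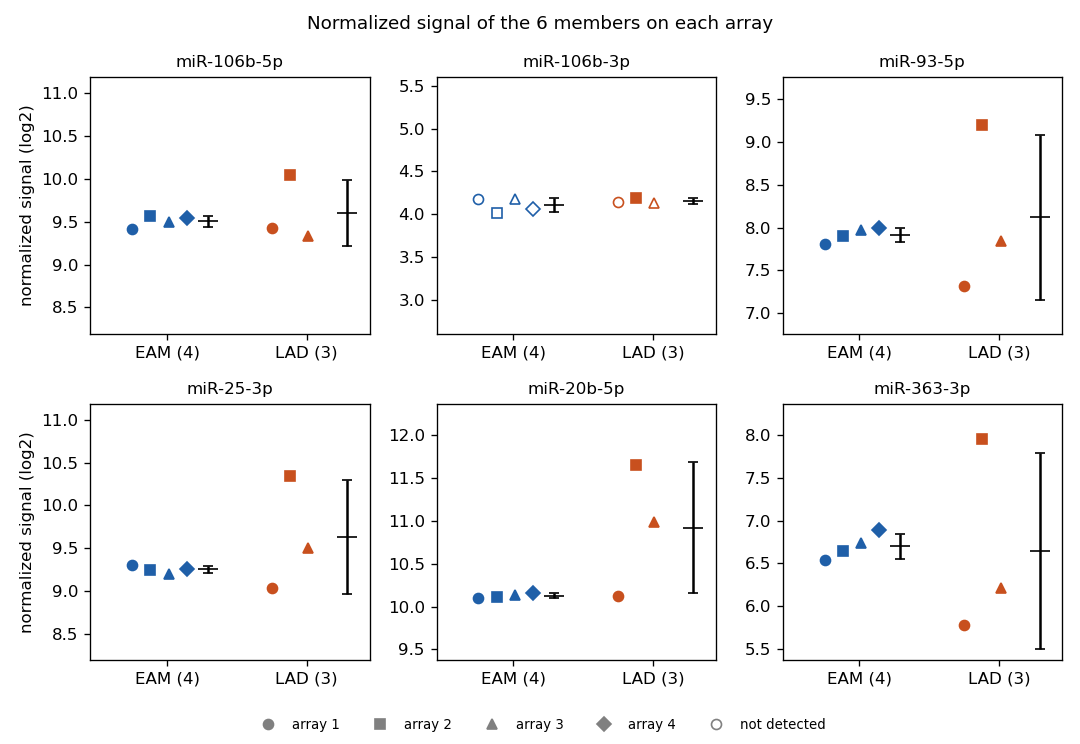
Normalized log2 signal of the 6 members on each of the 4 EAM and 3 LAD arrays, with bars for mean and SD and open symbols for arrays on which the miRNA was not detected; every panel spans the same number of log2 units. LAD array 2 (square) is the highest of the 7 arrays in every panel, and the LAD values enclose the EAM values of miR-106b-5p, miR-93-5p, miR-25-3p and miR-363-3p.

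In none of the 5 tested members were the EAM and LAD values fully apart, against 56% of all tested miRNAs. The median difference of the 5 was -0.20, and that of all 423 was 0.30. Of the 5 differences, 4 were below 0 and 1 above. These signs depend on the scaling, as given further on, and the wide intervals do not show that the members were alike in the 2 models. The interval of miR-106b-5p was the narrowest of the 5.

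Without scaling between arrays, the members separated the LAD arrays from each other. On LAD array 1 miR-106b-5p was 5.94-fold, miR-93-5p 4.99-fold, miR-25-3p 6.04-fold, miR-20b-5p 6.29-fold and miR-363-3p 4.31-fold below the EAM mean. On LAD array 3 the same order of members gave 8.71-fold, 5.16-fold, 6.45-fold, 6.41-fold and 4.12-fold. All of these exceeded the median shift of the array itself, 3.02-fold and 3.29-fold. This was not particular to the members, since every Mir17hg miRNA detected on all arrays exceeded it too. These ran from 3.42-fold for miR-18a-5p to 6.245-fold for miR-92a-3p on LAD array 1. On LAD array 3 the same 2 miRNAs gave the ends, 3.44-fold and 7.95-fold. The dimmer miR-92b-3p fell short of the median shift, at 1.08-fold and 1.18-fold. On LAD array 2, in contrast, miR-93-5p, miR-25-3p, miR-20b-5p and miR-363-3p were 0.58, 0.17, 0.26 and 0.60 above the EAM mean on the unscaled log2 scale, while miR-106b-5p was 0.41 below it and the array's median was 0.51 below. Every Mir17hg miRNA detected on all arrays was above that median too, from -0.43 for miR-92a-3p to 0.89 for miR-18a-5p. The scanner software's total gene signal of miR-20b-5p was 1143, 1279, 1069 and 1447 in EAM and 147, 1137 and 143.5 in LAD, and that of miR-106b-5p was 696, 865, 683 and 956 in EAM and 98.5, 460 and 66.3 in LAD. LAD arrays 1 and 3 were far below the EAM arrays for both. On LAD array 2 this signal lay within the EAM range for miR-20b-5p, toward its lower end, and below the EAM range for miR-106b-5p.

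**Figure D2:**
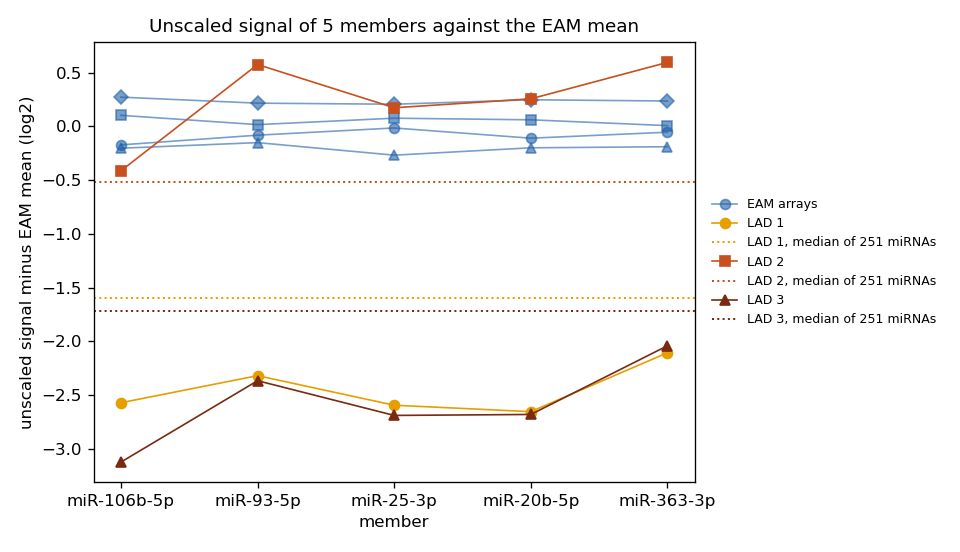
Unscaled log2 signal of the 5 detected members minus the EAM mean of the same miRNA, 1 line per array, with dotted lines for the median of 251 miRNAs on each LAD array. LAD arrays 1 and 3 lie between -2.04 and -3.12 for every member, below their own medians of -1.59 and -1.72, whereas LAD array 2 lies between -0.41 and 0.60, above its median of -0.51.

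The direction of the members' difference therefore depended on how the arrays were brought to a common scale. Left unscaled, all 5 were higher in EAM, by 2.04 for miR-106b-5p, 1.70 for miR-25-3p, 1.69 for miR-20b-5p, 1.37 for miR-93-5p and 1.18 for miR-363-3p. The first 2 of these passed (adjusted p = 0.0136 and 0.0444 in limma), where 71.2% of all tested miRNAs passed and their median difference was 1.17. Scaled to the 75th percentile of all probes, miR-106b-5p alone passed, at 1.48 higher in EAM (adjusted p = 0.0281 in limma, with 76.6% of all tested miRNAs passing). Median centring gave a like result, at 1.56 (adjusted p = 0.0237 in limma, with 75.4% passing). Scaled to the 75th percentile of the probes detected on all arrays, no member passed (56.3% of all tested miRNAs did), and the differences ran from -0.32 for miR-363-3p to 0.53 for miR-106b-5p. The authors' deposited values, also with no member passing against 56.7% of all tested miRNAs, gave 0.43 for miR-106b-5p, 0.0051 for miR-93-5p, 0.0018 for miR-25-3p, -0.44 for miR-20b-5p and 0.051 for miR-363-3p. On the quantile scale the weighting of the arrays mattered as well. miR-20b-5p passed toward LAD with an intensity trend in the variance (adjusted p = 0.0468 in limma, with 62.4% of all tested miRNAs passing) and with a separate variance for each group (adjusted p = 0.0457 in limma, with 32.9% passing). With 1 weight for each array, miR-93-5p and miR-363-3p passed toward EAM instead, at 0.52 and 0.87 (adjusted p = 0.00855 and 0.00127 in limma, with 82.5% passing). On each of the scales above other than the quantile one, miR-106b-5p had the highest difference of the 5 toward EAM, but after quantile normalization without control spots miR-363-3p had it.

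**Figure D3:**
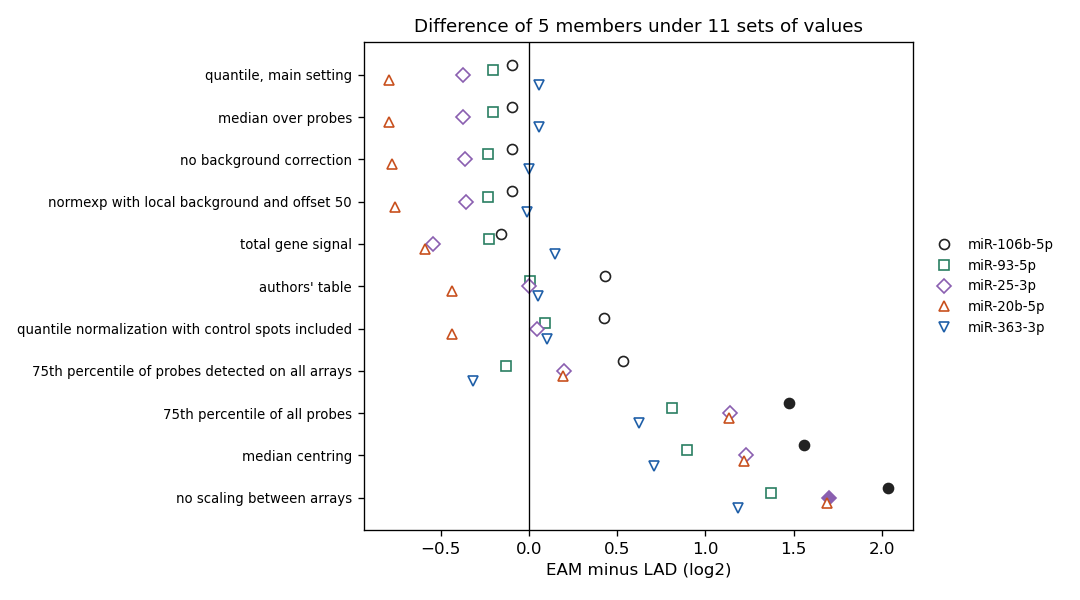
Difference between the groups (EAM minus LAD, log2) of the 5 detected members under each way of processing and scaling the arrays, with filled symbols where the adjusted p was under 0.05. The same member changes side from row to row: miR-20b-5p runs from -0.79 under quantile normalization to 1.69 without scaling.

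Each member apart from miR-106b-3p was read by 2 probes of 15 spots each, and no spot was saturated. These probes were complementary to the miRNA from its 3′ end back to between base 4 and base 9, so several also cover seed bases. The probes of miR-20b-5p gave normalized differences of -0.75 and -0.84, and those of miR-363-3p gave 0.0043 and 0.10. The 2 probes of miR-25-3p gave -0.14 and -0.61. They disagreed in sign for miR-106b-5p, at -0.31 and 0.12, and for miR-93-5p, at -0.62 and 0.21. Without scaling, the 2 probes of each member differed by little, with 2.04 and 2.03 for miR-106b-5p and 1.39 and 1.35 for miR-93-5p.
The probes are shown because some members are close in sequence to other miRNAs; the capitals mark bases that do not pair with the closest other mouse miRNA.
miR-20b-5p probe: ctacctgcactatGagcact
miR-106b-5p probe: aTctgcactgtCagcac
miR-93-5p probe: ctacctgcacGaACag
miR-25-3p probe: TcagAccgAgacaagtgc
The miR-20b-5p probe differed from a perfect match to miR-20a-5p at 1 of 20 bases. The miR-106b-5p probe had 2 such bases against miR-106a-5p, the miR-93-5p probe 3 against miR-20a-5p and the miR-25-3p probe 3 against miR-92a-3p. The closest others for the 2 miR-363-3p probes had 6 and 7. Binding of these other miRNAs to the probes was not tested. miR-106a-5p itself has no name of its own on the array, whose design lists it as the second target of the miR-17-5p probes.

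Differences between 2 miRNAs on the same array are free of a constant shift of that array. They are not free of a shift that varies with the level of signal. Unscaled, LAD array 3 was 8.71-fold below the EAM mean for miR-106b-5p but 1.18-fold below it for the dimmer miR-92b-3p. The part of such a shift in the differences below was not tested. Of the pairs planned, 9 could be computed, and 3 LAD against 4 EAM arrays allow 35 splits, so that the smallest 2-sided exact permutation p is 0.0571 and none can reach 0.05. Within miR-106b-25, miR-93-5p minus miR-106b-5p was -1.76, -1.93, -1.79 and -1.90 on the unscaled EAM arrays and -1.59, -0.86 and -1.09 on the unscaled LAD arrays. All 3 LAD arrays were above all 4 EAM arrays, with a difference between the group means of -0.67 (exact permutation p = 0.0571, adjusted p = 0.103 over the 9 pairs). After quantile normalization the same pair overlapped, with a group difference of -0.11 (exact permutation p = 0.629), and without LAD array 2 its sign turned to 0.21. miR-25-3p minus miR-106b-5p overlapped on both scales, at -0.28 (exact permutation p = 0.286) normalized and -0.33 (exact permutation p = 0.114) unscaled.

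Between the clusters, miR-20b-5p minus miR-106b-5p was 0.67, 0.54, 0.65 and 0.62 in EAM and 0.70, 1.600 and 1.66 in LAD after normalization. The groups were apart, LAD array 1 by a margin far smaller than LAD arrays 2 and 3, and the group difference was -0.70 (exact permutation p = 0.0571, adjusted p = 0.257). Without scaling it was -0.34 and overlapped (exact permutation p = 0.286). miR-363-3p minus miR-25-3p, the pair with the seed AUUGCAC, had group differences of opposite sign on the 2 scales: 0.43 normalized (exact permutation p = 0.229) and -0.52 unscaled, where the groups were apart (exact permutation p = 0.0571, adjusted p = 0.103).

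Set against Mir17hg, miR-20b-5p followed its near-identical relative miR-20a-5p closely. Their difference on the same array was 0.12, 0.14, 0.067 and 0.046 in EAM and 0.0079, 0.34 and 0.31 in LAD, a group difference of -0.13 normalized (exact permutation p = 0.286) and -0.052 unscaled (exact permutation p = 0.286). The probes of these miRNAs differ from a match to the other by 1 base, as shown above for miR-20b-5p. miR-17-5p was undetected on LAD array 1, and neither of its probes had a spot well above background on every LAD array, so its pairs with miR-106b-5p and miR-93-5p give no usable difference and are not described. The pairs of miR-25-3p and miR-363-3p with miR-92a-3p changed sign between the scales. Part of the miR-92a-3p signal may come from the Mir92-2 hairpin of miR-106a-363, so these pairs do not cleanly compare separate clusters. For miR-25-3p minus miR-92a-3p the values were 0.086 normalized (exact permutation p = 0.743) and -0.32 unscaled (exact permutation p = 0.0571). For miR-363-3p minus miR-92a-3p they were 0.51 (exact permutation p = 0.286) and -0.84 (exact permutation p = 0.0571). No pair had an adjusted p under 0.05 over the 9 pairs on either scale.

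**Figure D4:**
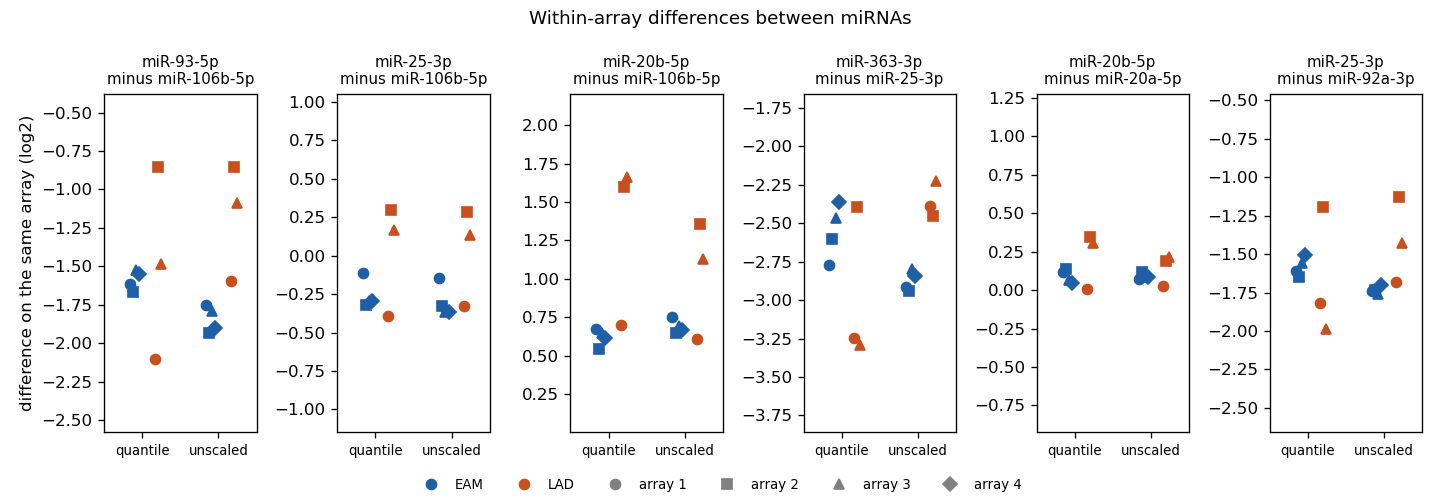
Difference between 2 miRNAs on the same array (log2), for 4 pairs of members and for miR-20b-5p and miR-25-3p against Mir17hg relatives, after quantile normalization and without scaling. In miR-363-3p minus miR-25-3p, LAD arrays 1 and 3 lie below the EAM arrays when normalized and above them when unscaled, whereas miR-20b-5p minus miR-20a-5p stays between 0.0079 and 0.34 on the normalized arrays.

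Of the related miRNAs, the Mir17hg list has 12 names on the array. Of these, 3 were detected nowhere, against 1328 of all 1881 names, and 8 were tested. None was higher in EAM and 1 was higher in LAD, against 36.2% and 23.6% of all tested miRNAs. The median difference of the 8 was -0.35. At an unadjusted p under 0.05 in limma, 3 of the 8 passed, all with LAD as the higher group, against 284 of all 423 tested miRNAs. Without scaling 6 did, all with EAM as the higher group, against 309 of the 423. Median centring gave 4 and the 75th percentile of all probes 2, also all toward EAM, against 332 and 335 of the 423. The 1 that passed was miR-19b-3p, which shares its seed with miR-19a-3p. The miR-106a-363 cluster also holds hairpins for miR-19b-3p and miR-92a-3p, namely Mir19b-2 and Mir92-2. The array has 1 name for each, so their signal cannot be assigned to Mir17hg alone. miR-19b-3p read 10.47, 10.54, 10.61 and 10.63 in EAM and 10.79, 11.65 and 11.37 in LAD, with every LAD array above every EAM array and a difference of -0.71 (95% interval -1.17 to -0.25, adjusted p = 0.0220 in limma). Leaving out each array in turn gave adjusted p-values in limma from 0.00575 to 0.0683, and the call was lost without any 1 of the 4 EAM arrays or without LAD array 3. It was 1.78 higher in EAM without scaling (adjusted p = 0.0289 in limma), and in the authors' deposited values it did not pass (-0.31, adjusted p = 0.356 in limma). miR-20a-5p and miR-92a-3p had differences of -0.67 and -0.46 (adjusted p = 0.0510 and 0.0576 in limma). Without LAD array 1 they passed at -0.96 and -0.68 (adjusted p = 0.0168 and 0.0162 in limma), without LAD array 2 they were -0.37 and -0.34, and without scaling they passed toward EAM at 1.75 and 2.02 (adjusted p = 0.0429 and 0.0123 in limma). For miR-17-3p, miR-18a-5p and miR-19a-3p the normalized differences were 0.56, -0.24 and -0.47, with adjusted p = 0.169, 0.641 and 0.170 in limma. Whether these passed depended on single arrays. Without LAD array 2, miR-17-3p passed at 1.02 and miR-18a-5p at 0.39 (adjusted p = 0.000283 and 0.0333 in limma), and without LAD array 1 miR-19a-3p passed at -0.80 (adjusted p = 0.0341 in limma). On LAD arrays 1 and 3 the total gene signal was low, at 5.91 and 4.00 for miR-17-3p and 10.46 and 11.46 for miR-18a-5p. miR-17-3p also passed toward EAM with 1 weight for each array, at 0.97, and without scaling, at 1.53 (adjusted p = 0.000154 and 0.0157 in limma), and left-out arrays moved it between 0.29 and 1.02.

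Of 9 further miRNAs from the hairpins of the 2 clusters, 6 were detected nowhere, against 1328 of all 1881 names on the array. Of the 9, 2 were tested and 1 passed, where 59.8% of all tested miRNAs passed. The 1 that passed was miR-18b-3p, named after its value was seen, at -0.46 (adjusted p = 0.0144 in limma) and with the opposite sign, 0.19, without scaling. The call was lost without EAM array 3 or EAM array 4 (adjusted p = 0.0506 and 0.0521 in limma). Its total gene signal never exceeded 5.69, and it was undetected on EAM array 1. Of the other miRNAs with the seed AUUGCAC, miR-367-3p was not detected, and the 2 tested passed in opposite directions. miR-92b-3p was higher in LAD by 0.72 after normalization (-0.72, adjusted p = 0.0117 in limma), but on the unscaled arrays its total gene signal was 11.29, 10.65, 9.19 and 8.49 in EAM and 8.93, 9.04 and 8.46 in LAD, and its difference of 0.099 had the opposite sign. Its shortest probe, of 10 bases, also matches miR-6909-3p without a mismatch. miR-32-5p, also named after its value was seen, was 0.76 higher in EAM (adjusted p = 0.0245 in limma), and was undetected on LAD array 3. Scaled to the 75th percentile of the probes detected on all arrays, its difference was 0.0054. Its call was lost without any 1 of EAM arrays 2, 3 and 4 or LAD arrays 1 and 3, where the adjusted p-values in limma were 0.0533, 0.0651, 0.0718, 0.0650 and 0.0778.

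**Figure D5:**
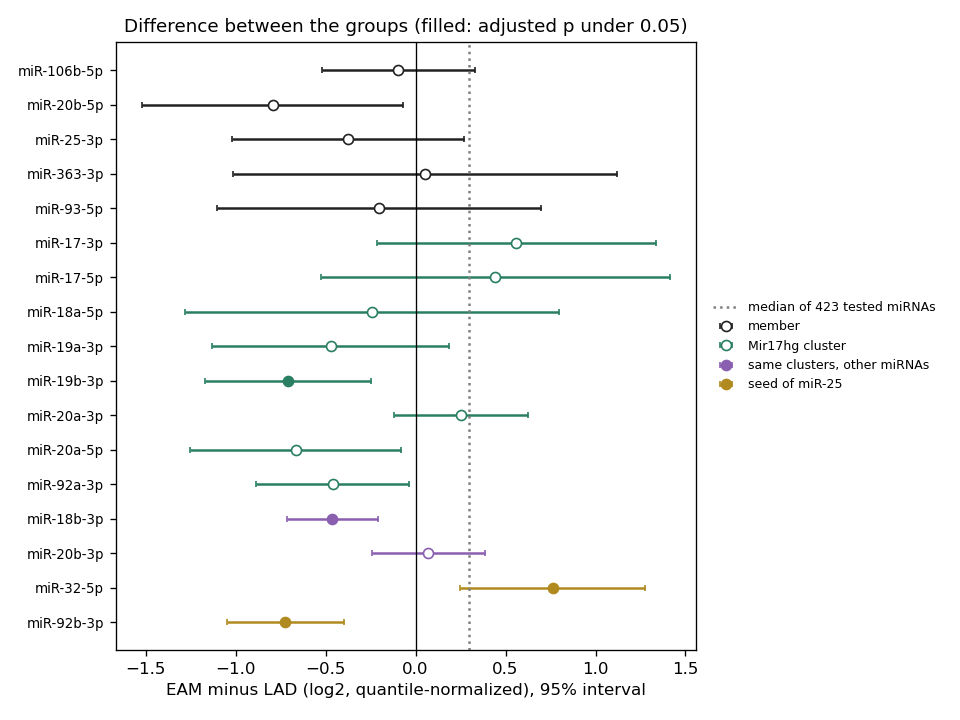
Normalized difference between the groups (EAM minus LAD, log2) with its 95% interval for the 5 tested members and the 12 tested relatives, filled where the adjusted p was under 0.05; the dotted line is the median of all 423 tested miRNAs, 0.30. All 5 members are open, with intervals from 0.85 wide for miR-106b-5p to 2.14 wide for miR-363-3p.

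Among themselves the 5 members correlated over the 7 normalized arrays with Pearson's r from 0.625 for miR-20b-5p and miR-363-3p, which share a cluster, to 0.967 for miR-93-5p and miR-363-3p, which do not. These coefficients are descriptions over 7 points that share the step of normalization. LAD array 2 is the highest in each member, and also in every Mir17hg miRNA detected on all arrays. Of the tested miRNAs outside the 6, those with the most similar pattern to miR-106b-5p were miR-132-3p (r = 0.987), miR-322-5p (0.98) and miR-296-5p (0.953). For miR-93-5p they were miR-301a-3p (r = 0.996), miR-18a-5p (0.987) and miR-296-5p (0.965), and for miR-363-3p they were miR-18a-5p (r = 0.968), miR-301a-3p (0.963) and miR-8101 (0.961). For miR-25-3p they were miR-130b-3p (r = 0.991), miR-181d-5p (0.987) and miR-19a-3p (0.976). For miR-20b-5p they were miR-181a-1-3p (r = 0.998), miR-20a-5p (0.994) and miR-128-3p (0.993).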

How the data were processed

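The 6 members and the lists of related miRNAs and markers were chosen with earlier results of these data known. Each of the 7 arrays came from 100 ng of total RNA, per the labels' protocols. Spot values are scanner intensities that the authors deposited as Agilent Feature Extraction 10.7.3.1 output, per the file headers, with the software's total gene signal and detection call for each miRNA. The authors also deposited a table of log2 values; RMA is the tool named in the submitters' processing notes, and its settings are not given in the sources used here. It served as an alternative.

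Here the mean spot signal was background-corrected by normexp, fitted on all spots without an offset. Control spots were then left out (56430 spots remained), and the rest were taken to log2 and then quantile-normalized. Outlier spots were dropped, the median of each probe's spots was taken, and the 2 or more probes of a miRNA were combined by median polish. The 423 miRNAs detected on all arrays of at least 1 group were tested in limma 3.58.1 (R 4.3.3; lmFit and eBayes) as EAM minus LAD, with Benjamini-Hochberg adjustment and a threshold of 0.05. Differences between miRNAs on the same array were compared by 2-sided exact permutation. Precision is limited by how few arrays there are. All 6 members were named, with those relatives detected on all 7 arrays and the 3 miRNAs most correlated with each tested member; 1 alternative, quantile normalization with control spots included, was chosen after seeing the data. Leaving out arrays, other scalings, filters, weights and a replicate block were also tried. Probe, mature and gene sequences and coordinates are from the array files and RefSeq's tables (GRCm38.p6); the array design's own build, mm9, was not used for coordinates.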

Additional observations from a re-analysis of the deposited data

Results flagged for a closer look

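The difference miR-25-3p minus miR-106b-5p on the same normalized array was -0.11 on EAM array 1, against -0.32, -0.29 and -0.29 on EAM arrays 2, 3 and 4. The gap of array 1 to the nearest of the others was 0.872 of the whole range, above Dixon's 95% critical value for 4 samples. It was the 1 such case in 21 groups of EAM values examined, and chance gives about 1 in 20. No other comparison was marked.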

How the results depend on the processing

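Over all 423 miRNAs, the count that passed was 253; it was 133 with only miRNAs detected on all 7 arrays, 139 with 1 variance for each group and 72 to 345 when each array was left out in turn. The replicate block, over the 3 shared numbers, left 0 of 423 (181 at an unadjusted p under 0.05 in limma), 0 related miRNAs (4 unadjusted) and -0.0082 for miR-363-3p. Same-numbered arrays correlated at 0.19, -0.16 and -0.19. With so few arrays and no differently numbered arrays set beside them, these values cannot decide whether the numbers pair the samples.

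Of the 5 members, 0 passed; 1 passed with the 75th percentile of all probes, median centring, an intensity trend in eBayes or 1 variance for each group, 2 with no scaling or with 1 weight for each array, and 0 to 1 with an array left out. The related count of 4 became 2 with total gene signals, with only miRNAs detected on all arrays and with group variances, 9 with array weights and 1 to 8 with an array left out.

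Signs that turned, as EAM minus LAD (log2), were the following. With the 75th percentile of all probes, miR-106b-5p was 1.48, miR-93-5p 0.81, miR-25-3p 1.14, miR-20b-5p 1.13, miR-18a-5p 0.33, miR-19a-3p 0.90, miR-20a-5p 1.18, miR-19b-3p 1.22 and miR-92a-3p 1.46. With median centring they were 1.56, 0.90, 1.23, 1.22, 0.42, 0.98, 1.27, 1.304 and 1.55 in the same order, and with no scaling 2.04, 1.37, 1.70, 1.69, 0.89, 1.46, 1.75, 1.78 and 2.02, with miR-92b-3p at 0.099. With the 75th percentile taken over detected probes, miR-106b-5p was 0.53, miR-25-3p 0.20, miR-20b-5p 0.19, miR-363-3p -0.32, miR-20a-5p 0.24, miR-19b-3p 0.28 and miR-92a-3p 0.52. In the authors' deposited table, miR-106b-5p was 0.43, miR-93-5p 0.0051 and miR-25-3p 0.0018, and with control spots included 0.43, 0.090 and 0.045. With array weights, miR-106b-5p was 0.086, miR-93-5p 0.52, miR-25-3p 0.12, miR-18a-5p 0.52 and miR-19a-3p 0.11. miR-363-3p was -0.0024 without background correction and -0.014 with local background and an offset of 50. Leaving out arrays gave -0.23 to 0.13 for miR-106b-5p, -0.60 to 0.33 for miR-93-5p, -0.38 to 0.71 for miR-363-3p and -0.64 to 0.39 for miR-18a-5p, and kept the sign of miR-25-3p (-0.67 to -0.014) and miR-20b-5p (-1.19 to -0.43).

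Within arrays, every scaling by a constant gave -0.52 for miR-363-3p minus miR-25-3p, 0.15 for miR-93-5p minus miR-17-5p, 0.82 for miR-106b-5p minus miR-17-5p (0.20 in the authors' deposited table; miR-17-5p was not well above background on every LAD array, so neither of its pairs is usable), -0.32 for miR-25-3p minus miR-92a-3p and -0.84 for miR-363-3p minus miR-92a-3p, each the opposite sign to the quantile-normalized value. Leaving out arrays gave -0.42 to 0.21 for miR-93-5p minus miR-106b-5p and -0.075 to 0.32 for miR-25-3p minus miR-92a-3p. In all 16 alternatives run for each, the pairs miR-20b-5p minus miR-106b-5p, miR-20b-5p minus miR-20a-5p and miR-25-3p minus miR-106b-5p kept their sign. Not all of the 16 are separate checks. A constant cancels within a pair, so the scalings by a constant share a value, and the median over probes repeated the quantile-normalized one. The causes were not tested. Signal over background limits miR-106b-3p, miR-17-5p, miR-18b-3p, miR-32-5p and miR-92b-3p, the last 4 of them near background on some or all arrays. On LAD arrays 1 and 3 the total gene signals of miR-363-3p, miR-17-3p and miR-18a-5p were low as well, and their values there carry the same limit.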
